A study of Mus musculus with 3 samples.

Results

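The genes described here are 32 imprinted genes that lie outside the Igf2-Kcnq1 and Dlk1-Dio3 domains, out of 35312 protein-coding and long noncoding RNA genes of the mouse annotation. They were chosen by name as known imprinted genes, with earlier results of these data known, and fall into 16 imprinted domains on 10 chromosomes. A total of 29 are protein-coding, and Nespas, Peg13 and Airn are long noncoding RNAs. Occupancy was mapped by ChIP-seq in the F123 line of male mouse embryonic stem cells (mESCs), which was derived from hybrid embryos of S129/Jae and Cast mice. The 3 libraries, 1 each for H3K27me3, Pol2-S5p and Pol2-S7p, came from this single untreated line, grown with LIF and passaged without feeder fibroblasts before harvest, so there were no control samples and no replicates. The files list enriched regions and carry no read counts, so the depth behind a region is unknown. Because the lists are not split by parental chromosome, the copy that carries a mark cannot be told apart from the other copy.

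Genomic imprinting is the expression of a gene from only the maternal or only the paternal chromosome. It rests on differentially methylated regions (DMRs), short CpG-rich stretches that are methylated in the egg or in the sperm and keep that methylation on the same parental copy in the embryo. A maternally methylated DMR often overlaps a promoter, which is then used on the paternal copy only. Methylation at DMRs is kept through early development by the zinc finger protein ZFP57, which binds its hexamer on the methylated copy. H3K27me3 is the mark laid down by Polycomb repressive complex 2. Pol2-S5p and Pol2-S7p are RNA polymerase II phosphorylated at serine 5 or serine 7 of its tail. The serine 5 form gathers near starts, also where Polycomb is bound, and the serine 7 form marks genes that are productively transcribed.

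The following stretches are shown because they hold the ZFP57 hexamer at imprinted promoters and lay inside the enriched regions described further on. They were read 5′ to 3′ on the strand of the named gene from the RefSeq sequence of GRCm38 (mm10), lie outside annotated exons, and have the hexamer TGCCGC or its reverse complement GCGGCA in capitals. The stretch between the divergent starts of Sgce and Peg10 is chr6:4747208-4747305 on the plus strand. The Peg3 stretch is intronic, at chr7:6730016-6730215 on the minus strand, inside the H3K27me3 region that Peg3 shares with Usp29. The Plagl1 stretch is intronic, at chr10:13091045-13091194 on the plus strand, just downstream of the start used by most annotated transcripts. For Nap1l5 the bases upstream of its start are given, chr6:58907077-58907196 on the minus strand, and for Snrpn an intronic stretch at chr7:60004342-60004541 on the minus strand, which lay in Pol2-S5p and Pol2-S7p regions and in no H3K27me3 region.
Sgce-Peg10: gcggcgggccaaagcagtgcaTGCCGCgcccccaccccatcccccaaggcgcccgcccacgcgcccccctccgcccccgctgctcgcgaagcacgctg
Peg3: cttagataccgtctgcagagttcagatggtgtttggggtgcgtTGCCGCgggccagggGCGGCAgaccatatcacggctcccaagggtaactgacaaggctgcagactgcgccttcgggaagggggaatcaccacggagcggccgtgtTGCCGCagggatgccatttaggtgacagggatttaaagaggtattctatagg
Plagl1: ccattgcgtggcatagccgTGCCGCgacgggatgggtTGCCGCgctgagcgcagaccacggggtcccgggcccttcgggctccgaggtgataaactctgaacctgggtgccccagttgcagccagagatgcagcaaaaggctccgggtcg
Nap1l5: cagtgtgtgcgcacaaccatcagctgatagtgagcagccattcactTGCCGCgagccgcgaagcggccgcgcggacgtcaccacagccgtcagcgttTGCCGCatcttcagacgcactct
Snrpn: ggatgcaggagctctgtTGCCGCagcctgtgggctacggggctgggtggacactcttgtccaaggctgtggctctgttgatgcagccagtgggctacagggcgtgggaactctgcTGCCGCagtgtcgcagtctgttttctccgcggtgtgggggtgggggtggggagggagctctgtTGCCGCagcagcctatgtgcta

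Imprinted promoters were most often occupied by all 3 marks. A promoter was taken as the 2 kb window centred on a transcription start, and a mark was present where a region touched the window by at least 1 bp. By this rule 19 of the 32 genes (59.4%, exact Clopper-Pearson interval 40.6 to 76.3) had H3K27me3, against 32.8% of all genes. Pol2-S5p was present at 31 (96.9%, 83.8 to 99.9), against 57.4% of all genes. Pol2-S7p was found at 27 (84.4%, 67.2 to 94.7), where all genes had it at 48.9%. Over all protein-coding genes the shares were higher, 37.7% for H3K27me3, 69.9% for Pol2-S5p and 60.4% for Pol2-S7p. The intervals are at 95% and cover counting error only.

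Promoters with all 3 marks, the Polycomb-Active (PRCa) state, numbered 16 (50.0%), where 18.8% of all genes and 23.9% of protein-coding genes were PRCa. They were Magel2, Mkrn3, Usp29, Mest, Peg10, Sgce, Nespas, Peg13, Airn, Plagl1, Impact, Nnat, Blcap, Nap1l5, Herc3 and Zdbf2. The Active state, Pol2-S5p and Pol2-S7p without H3K27me3, was seen at 11 (34.4%), close to the 29.1% of all and 35.9% of protein-coding genes. These were Snrpn, Ube3a, Peg3, Copg2, Gnas, H13, Mcts2, Igf2r, Grb10, Zrsr1 and Commd1. The Polycomb-repressed state (PRCr), H3K27me3 and Pol2-S5p without Pol2-S7p, was found at Zim1, Kcnk9 and Rasgrf1 (9.38%, against 6.63% of all genes). Trappc9 had Pol2-S5p only, a combination held by 2.88% of all genes. Ndn had none of the marks in its window, the Inactive state that 34.4% of all genes were in. No imprinted gene was in the other states, which were H3K27me3 alone (7.20% of all genes), Pol2-S7p alone (0.796%) and both of these without Pol2-S5p (0.195%).

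**Figure D1:**
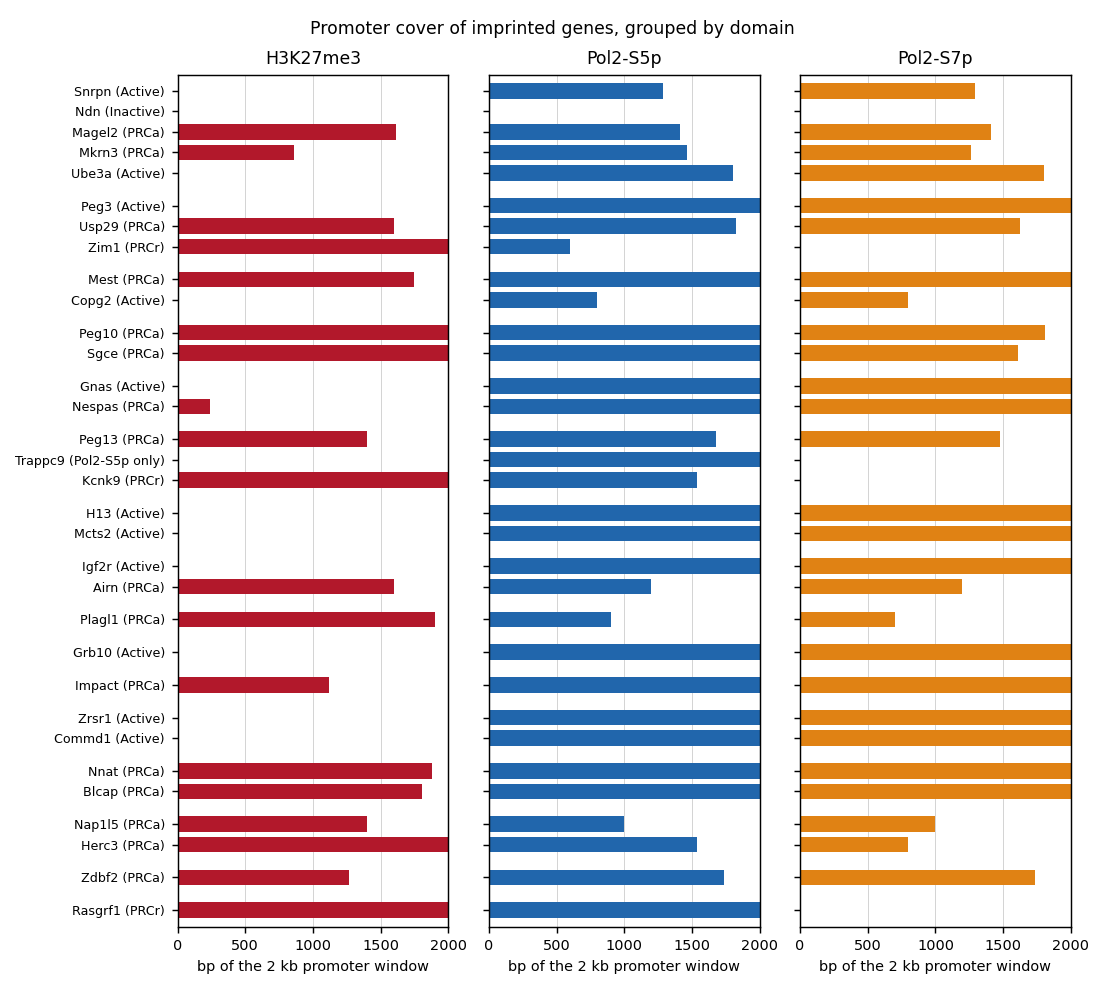
Length of the 2 kb promoter window (x axis, bp) covered by H3K27me3, Pol2-S5p and Pol2-S7p regions for each of the 32 imprinted genes (y axis, grouped by domain, state in parentheses), 1 library per mark. Pol2-S5p is present in 31 windows and H3K27me3 in 19, with windows of the same domain often unlike each other.

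The window used for a gene with several starts was the one with the longest Pol2-S5p cover, which for 10 genes lay outside the start group of most annotated transcripts. When that group was used instead, 19 genes were PRCa (59.4%), against 19.2% of all genes by the same choice, and 8 were Active, against 27.8%. Peg3, Gnas, Igf2r and Grb10 moved from Active to PRCa, Trappc9 from Pol2-S5p only to Active, Blcap from PRCa to Active and Snrpn from Active to Inactive. This group was the largest of a gene and need not hold a majority, with 2 transcripts at Grb10 and 7 at Gnas. Ties went to the most upstream group. The groups of Snrpn and of Igf2r hold 1 transcript each, so their moves rest on that tie rule. The PRCa count was more sensitive to the score of the regions, and with regions above the median score of their own list only Mkrn3, Nespas and Plagl1 remained, 3 of the 16. Over all genes, 32.1% of PRCa promoters kept the state under that filter. A total of 7 genes had windows that overlapped that of another gene (Snrpn, Copg2, Peg10, Sgce, Nnat, Blcap and Zdbf2), and the shared windows of Peg10 and Sgce and of Nnat and Blcap cannot be told apart.

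The cell type was checked against its markers. All 10 embryonic stem cell markers, among them Pou5f1 and Nanog, had Pol2-S5p and Pol2-S7p. None of the 8 feeder fibroblast markers had Pol2-S7p, and Thy1 and Twist2 among them had Pol2-S5p with H3K27me3. The lists held 17342 H3K27me3, 29222 Pol2-S5p and 22320 Pol2-S7p regions.

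Genes expressed from the paternal copy were more often PRCa than those expressed from the maternal copy. Of 20 paternally expressed genes, 14 (70.0%) were PRCa, 4 were Active, Rasgrf1 was PRCr and Ndn was Inactive. Of 12 maternally expressed genes, 2 (Blcap and Herc3) were PRCa, 7 were Active, Zim1 and Kcnk9 were PRCr and Trappc9 had Pol2-S5p only. The PRCa share was thus 16.7% for maternally expressed genes, near the 18.8% of all genes. H3K27me3 was present at 75.0% of the paternally expressed genes (50.9 to 91.3) and 33.3% of the maternally expressed ones (9.92 to 65.1), with intervals that overlapped, and the difference was not tested. The share of all genes, 32.8%, lay near that of the maternally expressed genes. At the group of most transcripts the PRCa counts were 15 of 20 and 4 of 12, and the shares with H3K27me3 80.0% and 50.0%. The parental copy is textbook knowledge for mouse tissues, several genes are imprinted only in certain tissues, and expression was not measured in the files used here.

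Of the 15 genes whose promoter lies at a maternally methylated germline DMR, 11 (73.3%) were PRCa and 4 (Snrpn, Peg3, Mcts2 and Zrsr1) were Active. All 15 had both polymerase marks. All 15 are also paternally expressed, and none of the 12 maternally expressed genes is among them. The split by DMR and the split by parental copy therefore cannot be told apart. For Peg3, Plagl1 and, by the tie rule, Snrpn the window used was not at the start group of most transcripts. Of the other 17 genes, 5 (29.4%) were PRCa, namely Magel2, Mkrn3, Blcap, Herc3 and Zdbf2, where 18.8% of all genes were. The Blcap window overlaps that of Nnat, a DMR promoter. DMRs were assigned per gene, so some starts of these 17 genes may lie at one. Pol2-S7p was present at 70.6% of these 17, against 48.9% of all genes. At the group of most transcripts the counts were 12 of 15 and 7 of 17. The share with H3K27me3 was 73.3% (44.9 to 92.2) at DMR promoters and 47.1% (23.0 to 72.2) at the others, again with overlapping intervals, and 32.8% over all genes.

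Counted per promoter, the H3K27me3 regions at imprinted genes were narrower than those of all genes. Across the 16 PRCa genes the H3K27me3 region at the promoter had a median width of 2900 bp (quartiles 1550 and 9250), while the 6634 PRCa promoters of all genes had a median of 16000 bp (4200 and 54000). Regions over 10 kb were found at 5 of the 19 genes with H3K27me3 (26.3%), where 61.5% of all H3K27me3 promoters had one. The widest were at Mest (28600 bp), Peg10 and Sgce (a shared region of 19000 bp), Herc3 (15400 bp) and Kcnk9 (15200 bp). A region of 25200 bp at Grb10 is not counted here. It covered the largest Grb10 start group, of 2 transcripts, but lay outside the window used for the gene. The narrowest, 1200 bp, was at Mkrn3, and Peg13, Nap1l5 and Zdbf2 had regions of 1400 bp. In the other imprinted domains all H3K27me3 regions at promoters were over 10 kb, with a median of 112000 bp at 8 genes of the Igf2-Kcnq1 domain and 78000 bp at 3 genes of the Dlk1-Dio3 domain. Genes of a domain can share a region, so these counts are not independent. In the same way a wide region counts once for each promoter that it touches. Counted once per region, the medians were closer, 2700 bp for the 34 distinct regions at the imprinted genes and 3400 bp for all 17342.

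**Figure D2:**
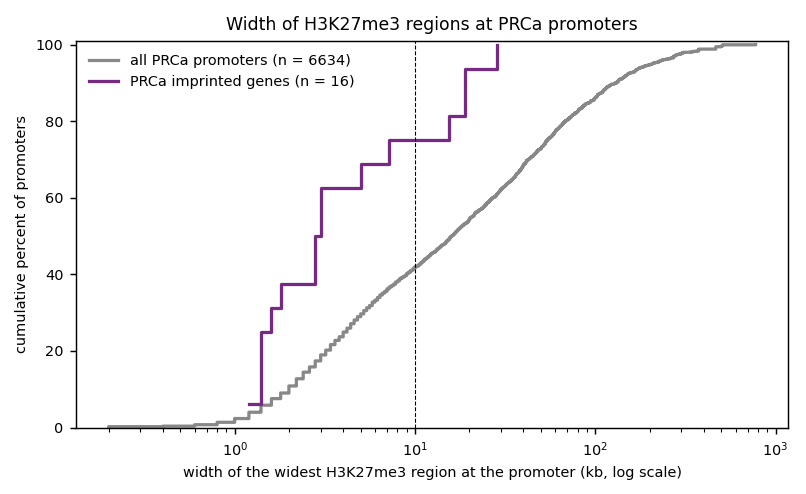
Cumulative percent of promoters (y axis) by the width of the widest H3K27me3 region touching the 2 kb window (x axis, kb, log scale), for the 16 PRCa imprinted genes and all 6634 PRCa promoters, 1 library. The dashed line marks 10 kb, above which 4 of the 16 imprinted genes lie.

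All 3 marks lay on the same bases in 16 of the 16 PRCa windows, over 236 bp at Nespas to 1878 bp at Nnat, with a median of 1299 bp. The same share over all PRCa promoters was not computed, so this overlap is not given as a trait of imprinted genes. The H3K27me3 region was narrower than both polymerase regions at 9 of these genes (56.2%, against 28.8% of all PRCa promoters). At Mkrn3, Usp29, Nespas, Peg13, Airn, Impact, Nnat, Blcap and Zdbf2 it thus lay as a short interval within or at the edge of longer polymerase regions. At the other 7 (43.8%, against 54.4%), Magel2, Mest, Peg10, Sgce, Plagl1, Nap1l5 and Herc3, the H3K27me3 region was the widest. Within 1 kb of the 32 genes there were 34 distinct H3K27me3 regions with widths of 800 to 28600 bp. Pol2-S5p touched 28 of them (82.4%), against 59.4% of all H3K27me3 regions, and Pol2-S7p 24 (70.6%), against 45.8%. The same 24 regions were touched by both marks, against 43.4% of all. A total of 24 (70.6%) measured 5 kb or less, against 59.9%.

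Imprinted genes often had starts in different states. Joining annotated starts within 500 bp gave 93 start groups, and 22 of the 32 genes had more than 1. The groups of 18 of these 22 genes differed in state, where 47.9% of all genes with more than 1 group did. Only 12 of the 18 had more than 1 state among their marked groups, and the rest differed by an Inactive group alone. The number of groups per gene was not matched in this comparison. A total of 20 genes had at least 1 PRCa group. Among the groups, 28 were PRCa (16.1% of all genes' groups were), 25 Active (29.4%), 5 PRCr (5.76%), 4 had H3K27me3 only (7.22%), 5 Pol2-S5p only (3.29%) and 26 were Inactive (35.9%). None had Pol2-S7p alone (2.06%) or Pol2-S7p with H3K27me3 but no Pol2-S5p (0.207%).

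**Figure D3:**
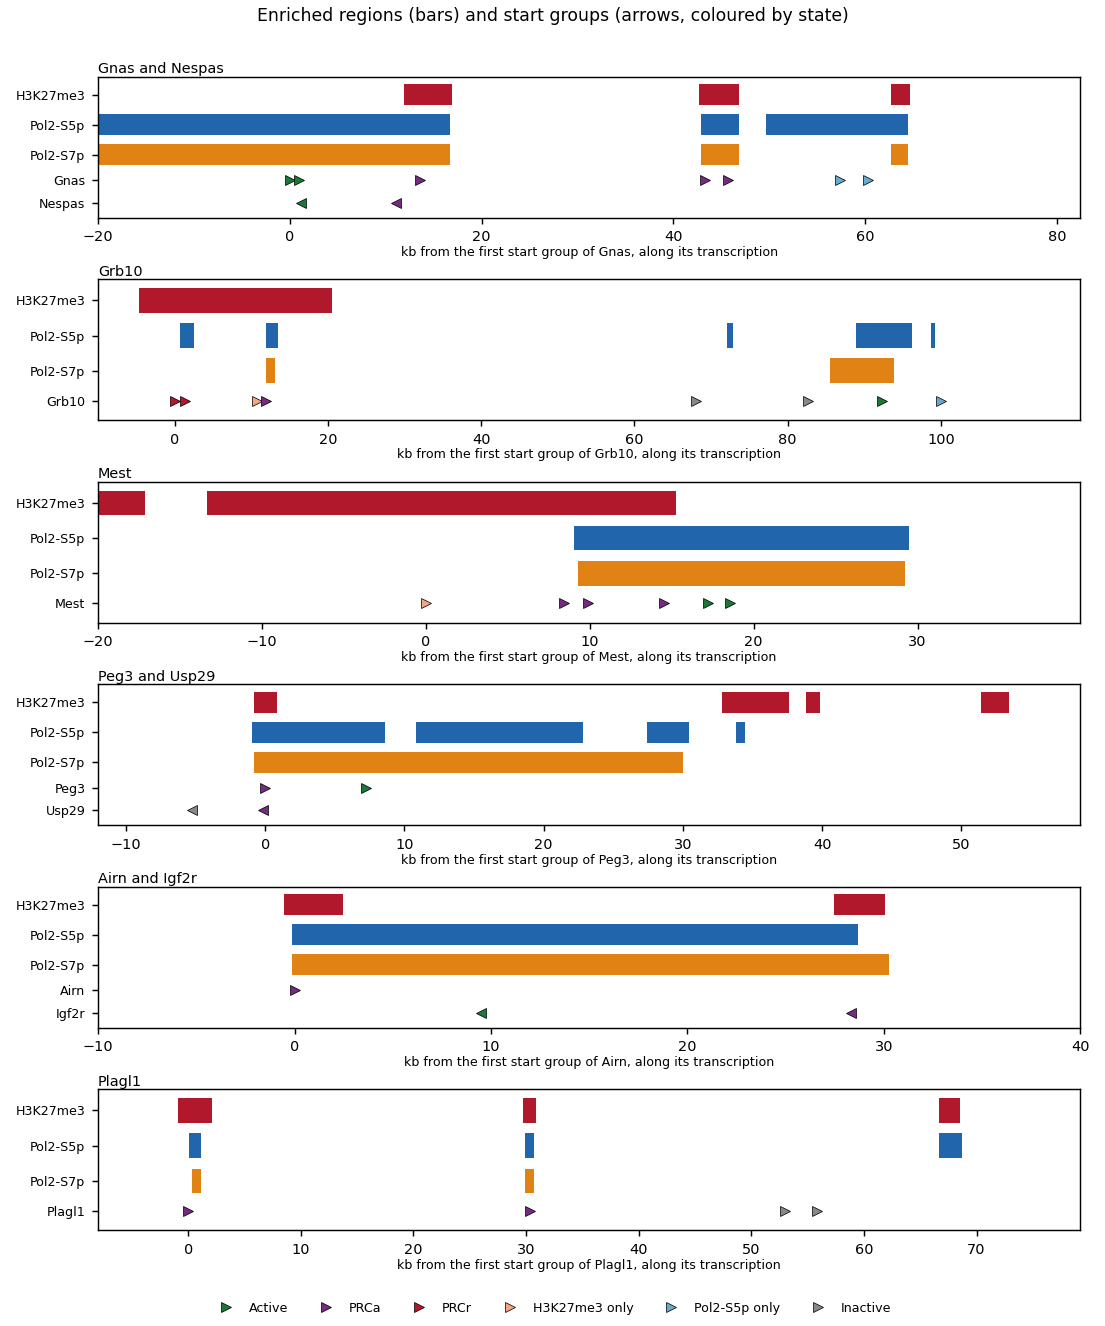
Enriched regions of each mark (bars) and start groups coloured by state (arrows pointing along transcription) in kb from the first start group of the named gene, for Gnas and Nespas, Grb10, Mest, Peg3 and Usp29, Airn and Igf2r, and Plagl1. Gnas, Mest and Igf2r each have starts with all 3 marks and other starts with polymerase alone.

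Gnas, on chromosome 2, encodes the stimulatory G protein alpha subunit and has alternative first exons with different imprinting, and Nespas is the antisense RNA of its cluster. The upstream Gnas starts at 174284320 and 174285256 were Active, under a Pol2-S5p region of 46400 bp and a Pol2-S7p region of 38800 bp. The start at 174297859 was PRCa, with an H3K27me3 region of 5000 bp (174296200 to 174301199) that touched the Nespas window over 236 bp. The starts at 174327570 and 174330006 were PRCa too, below an H3K27me3 region of 4200 bp (174327000 to 174331199) and polymerase regions of 4000 bp each. By score these H3K27me3 regions ranked at percentiles 99.5 and 99.8 of their list, the highest at any of the 32 genes. The 2 remaining Gnas starts had Pol2-S5p only. The Nespas start at 174295436 was PRCa, and its other start at 174285435 was Active.

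Grb10, on chromosome 11, encodes an adaptor that inhibits growth signalling, and is maternally expressed in most tissues and paternally in neurons. Its first starts, at 12038683 and 12037401, were PRCr. They lay in an H3K27me3 region of 25200 bp (12018200 to 12043399) that also covered the start at 12027971, which had H3K27me3 only, and the start at 12026732, which was PRCa. The Pol2-S5p region beside that last start, 1600 bp wide, ranked at percentile 98.9 of its list. Of the 4 downstream groups, 2 were Inactive, 1 was Active (11946330, used above for the gene) and 1 had Pol2-S5p only.

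Mest, on chromosome 6, encodes a hydrolase-fold protein expressed in mesoderm, and Copg2, a coat protein subunit gene, overlaps its 3' end. The H3K27me3 region of 28600 bp ran from upstream of the gene to 0.747 kb past the start used, and polymerase regions of 20400 bp (Pol2-S5p) and 20000 bp (Pol2-S7p) ran on downstream. The 6 Mest groups, in order of transcription, had H3K27me3 only, then PRCa at 3 groups, then Active at 2. The Copg2 start was Active with polymerase regions of 800 bp.

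In the Peg3 domain on chromosome 7, Peg3 and Usp29, which encode a zinc finger protein and a ubiquitin protease, start back to back at 6730431 and 6730578. An H3K27me3 region of 1600 bp covered both starts. It overlapped a Pol2-S5p region of 9600 bp and a Pol2-S7p region of 30800 bp that covered all of Peg3. Both starts were PRCa, and the internal Peg3 start at 6723215 was Active. Usp29, 236642 bp long, was covered by Pol2-S7p over only 0.263%. Zim1, a zinc finger gene of the same domain, was PRCr, with an H3K27me3 region of 4800 bp and a Pol2-S5p region of 600 bp.

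On chromosome 17, Airn is the long noncoding RNA that silences Igf2r, the receptor that clears insulin-like growth factor 2, on the paternal copy. Airn starts inside Igf2r and runs against it. An H3K27me3 region of 3000 bp lay at the Airn start and another of 2600 bp at the first start of Igf2r. A Pol2-S5p region of 28800 bp and a Pol2-S7p region of 30400 bp spanned the interval between them, so that both starts were PRCa. Beyond these regions the last Igf2r start and the second Airn start were Inactive.

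Plagl1, on chromosome 10, encodes a zinc finger regulator of growth. Its first start was PRCa with an H3K27me3 region of 3000 bp. The start of 22 transcripts at 13090832, from which the printed stretch was taken, was PRCa as well, with H3K27me3 over 1200 bp (percentile 98.9 by score) and polymerase regions of 800 bp each. The downstream groups were Inactive.

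The Snrpn-Ube3a domain, the mouse counterpart of the Prader-Willi and Angelman region, spanned 3191 kb of chromosome 7 and held 13 H3K27me3, 20 Pol2-S5p and 17 Pol2-S7p regions. The share of its bases covered was low, 0.765% for H3K27me3, 0.789% for Pol2-S5p and 0.745% for Pol2-S7p. Snrpn, which encodes a splicing protein, was Active at 60005111 and Inactive at its upstream start at 60140219, and the nearest H3K27me3 region lay 344889 bp from the start used. Ube3a, a ubiquitin ligase, was Active at the start of 11 transcripts, where its Pol2-S5p and Pol2-S7p regions, each 1800 bp, ranked at percentiles 96.1 and 98.4. Its 7 other groups were Inactive.

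Magel2, Mkrn3 and Ndn are intronless or nearly intronless genes of the domain. Magel2, a partner of ubiquitin ligases, was covered by H3K27me3 over 100% of its length, by Pol2-S5p over 81.8% and by Pol2-S7p over 68.9%. At Mkrn3, a ring finger gene, a 1200 bp H3K27me3 region lay under Pol2-S5p and Pol2-S7p regions of 1800 and 1600 bp. For Ndn, which encodes necdin, an inhibitor of cell growth, all 3 marks lay downstream of the annotated start, from 1.23 to 3.03 kb. They covered 43.3% (H3K27me3), 37.9% (Pol2-S5p) and 48.7% (Pol2-S7p) of the gene, and with a 4 kb window no gene of the 32 was Inactive.

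Peg10, a gene derived from a retrotransposon and needed for the placenta, and Sgce, a sarcoglycan gene, start back to back on chromosome 6, separated by the 98 bp printed above. The H3K27me3 region of 19000 bp lay mostly over Sgce, and the Pol2-S7p region of 16000 bp ran over the whole of Peg10. A second H3K27me3 region, of 9200 bp, lay over the downstream part of Peg10 and ran past its end. H3K27me3 thus covered 66.7% of Peg10 and 23.6% of Sgce. Pol2-S7p covered 100% of Peg10 and 2.21% of Sgce. The shared Pol2-S5p region, 3600 bp, ranked at percentile 94.7.

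In 5 pairs an imprinted gene lies within a host gene. The nested genes Nap1l5, Nnat and Peg13 were PRCa, and Mcts2 and Zrsr1 were Active. H13, a signal peptide peptidase, and Mcts2, a retrogene in its intron, were covered in full by a Pol2-S5p region of 42800 bp and a Pol2-S7p region of 42400 bp, without H3K27me3. Zrsr1, a splicing factor retrogene, and its host Commd1 shared polymerase regions of 10800 bp, and the nearest H3K27me3 region lay 225985 and 220204 bp from their starts. Nnat, a proteolipid of developing brain, and Blcap shared an H3K27me3 region of 2800 bp below a Pol2-S5p region of 32200 bp and a Pol2-S7p region of 27200 bp. Blcap was PRCa at the start beside Nnat, Active at its start at 157566361 and Inactive at its first start.

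Nap1l5, a nucleosome assembly protein relative, had H3K27me3 over 1400 bp and polymerase regions of 1000 bp each. Its host Herc3 was PRCa at its first start, below an H3K27me3 region of 15400 bp, and again at a start opposite Nap1l5, with 1 group that had H3K27me3 only and 5 Inactive groups between. Peg13, a noncoding RNA in an intron of Trappc9, had H3K27me3 over 1400 bp at percentile 11.3 of the list, the lowest score rank at any promoter of the 32 genes. Trappc9, a trafficking complex subunit, was Active at the start of most transcripts and had Pol2-S5p only at the next one. Kcnk9, a potassium channel of neurons in the same domain, was PRCr with H3K27me3 over 15200 bp.

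Of the remaining genes, Impact, a regulator of translation, had an H3K27me3 region of 1800 bp within a Pol2-S5p region of 26600 bp and a Pol2-S7p region of 80000 bp. Zdbf2, a zinc finger gene of chromosome 1, had an H3K27me3 region of 1400 bp at its start. A Pol2-S7p region of 216800 bp, the widest at any of the 32 genes, ended 0.735 kb past that start, and a Pol2-S5p region of 27000 bp ended at the same place. Rasgrf1, a Ras exchange factor of neurons, had H3K27me3 over 8800 bp and Pol2-S5p over 2800 bp at its start, and no Pol2-S7p in the gene.

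Of the 32 genes, 30 are at least 2 kb long, and the regions covered a median share of their bodies of 10.3% for H3K27me3, 31.0% for Pol2-S5p and 26.1% for Pol2-S7p. Over all genes of that length the medians were 0, 5.32 and 1.84%. Protein-coding genes had higher polymerase medians, 13.2% (Pol2-S5p) and 5.37% (Pol2-S7p) without the length limit. The 32 genes had 37.3% and 30.7% without that limit. H3K27me3 covered over 50% of 4 genes (Magel2, Mest, Peg10 and Nnat), or 13.3%, against 18.9% of all genes. Pol2-S5p did so at 12 of the 30, against 32.9%, and Pol2-S7p at 11 (36.7%), against 28.9%, so cover of most of a gene was near the background for each mark. H3K27me3 was absent from the body of 6 genes and Pol2-S7p from that of Zim1, Kcnk9 and Rasgrf1. Median cover fell to 3.84, 12.3 and 9.04% when the first 2 kb of each gene was left out.

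**Figure D4:**
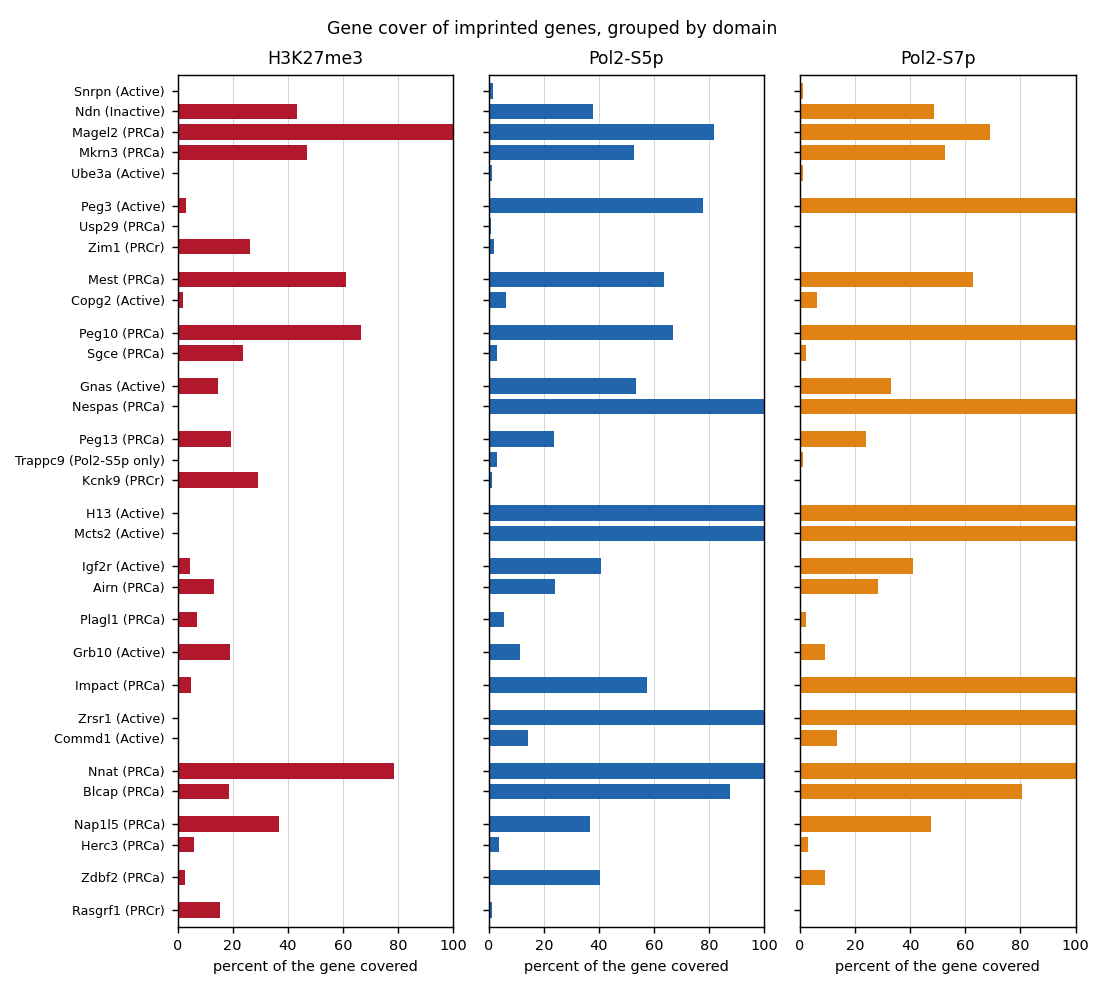
Percent of each gene from start to end (x axis) covered by H3K27me3, Pol2-S5p and Pol2-S7p regions, for the 32 imprinted genes (y axis, grouped by domain, promoter state in parentheses), 1 library per mark. Cover by Pol2-S7p runs from 0 at Zim1, Kcnk9 and Rasgrf1 to 100% at genes such as Peg3, Peg10 and Impact.

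Domains, taken from the first to the last base of their genes, differed widely in cover. H3K27me3 covered a median of 6.58% of the 16 domains, from 0 in the Mcts2-H13 and Zrsr1-Commd1 domains to 30.3% in the Peg10 domain, while it covered 8.67% of the chromosomes. Pol2-S5p covered a median of 13.4% (0.789 to 100%), against 12.1% of the chromosomes. For Pol2-S7p the median was 11.9% (0 at Rasgrf1 to 100% at Mcts2-H13), against 9.58%. Medians over domains thus lay near the cover of the chromosomes.

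The promoters were also rich in the ZFP57 hexamer, a feature of sequence that the choice of genes did not use directly. TGCCGC, on either strand, was present in 26 of the 32 windows (81.2%), against 34.8% of all promoters of the same length. It was present at 41.1% of protein-coding and 60.4% of PRCa promoters, so the contrast was smaller there. At least 5 copies were found in 9 windows (28.1%), against 0.912% of all promoters, 2.61% of PRCa promoters and 3.53% of windows with a CpG ratio (observed over expected) of at least 0.6. The limit of 5 copies was chosen with results of these data known. The 9 genes were Mest with 12 copies, Snrpn with 10, Airn with 7, Peg13, Nnat and Blcap with 6, and Usp29, Nespas and Nap1l5 with 5. Windows of Nnat and Blcap overlap, so their copies are partly the same. The median was 2 copies, against 0 over all genes and 1 over PRCa promoters. The median CpG ratio was 0.620, against 0.289 over all genes and 0.590 over PRCa promoters.

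Promoters at a maternally methylated DMR held most of these copies. At least 5 copies stood in 8 of 15 DMR promoters (53.3%) and in 1 of the other 17, that of Blcap. The Blcap window overlaps that of Nnat, which is among the 8. Over all start groups, 14 of 93 (15.1%) had at least 5 copies, against 0.622% of all genes' groups, and 12 of the 14 were PRCa. Over all genes, with 1 window per gene, 173 of the 322 promoters with at least 5 copies were PRCa. Some of the 14 windows overlap (Nnat with Blcap, Peg3 with Usp29 and Nap1l5 with Herc3), and together they make up 10 distinct stretches. They included the first start of Peg3 and the Plagl1 start at 13090832, each with 6 copies, and the Grb10 start at 12037401 with 5 copies in the PRCr state. The exception without H3K27me3 was Snrpn. A match of the hexamer is a description of the sequence and not a binding site, and the lists give no methylation.

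**Figure D5:**
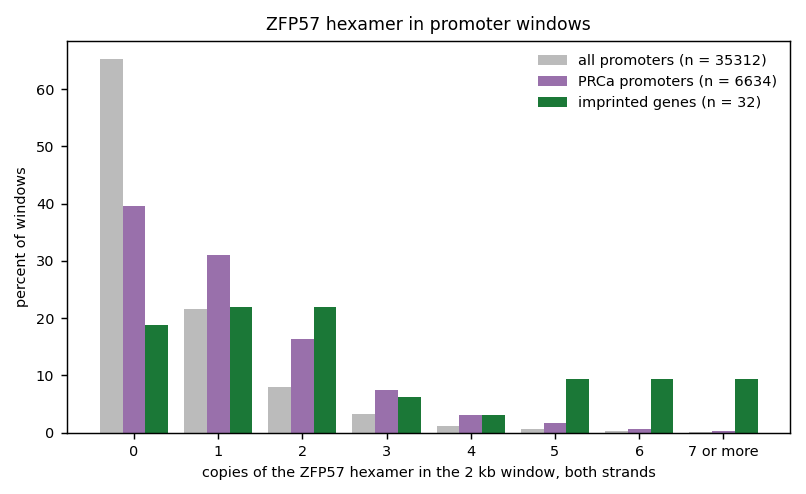
Percent of 2 kb promoter windows (y axis) by the number of copies of the ZFP57 hexamer on both strands (x axis), for all 35312 promoters, the 6634 PRCa promoters and the 32 imprinted genes. Of the imprinted genes 28.1% have at least 5 copies, against 0.912% of all promoters.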

How the data were processed

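Enriched regions of H3K27me3, Pol2-S5p and Pol2-S7p from 3 ChIP-seq libraries of F123 mESCs, 1 per mark, were used as deposited. The labels and the study's methods state that 75 bp single-end reads were aligned by the authors to mm10 with variant positions masked (Bowtie2 2.3.4.3 in the submitters' processing notes), and regions were called per library with the Bayesian change-point caller in its mode for histone marks. The deposited score of each region has no stated unit and was used only to rank or filter within a list. Widths, as the authors deposited them, were an other kind of value in bp, multiples of 200 equal to end minus start. The lists carry no read counts, so depth was not used here and no interval covers more than counting error.

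Genes were taken from GENCODE M21 (21938 protein-coding, 13374 long noncoding) and bases from RefSeq GRCm38. States were adapted from the study, which left out overlapping genes and genes with close starts, while all were kept here. A gene with several starts was represented by the start whose window had most Pol2-S5p cover, ties being broken by Pol2-S7p cover and then transcript length. Region cover took the place of reads, and the read threshold of the study could not be applied. With 1 library per mark no p-value was computed. Shares have exact Clopper-Pearson intervals (95%) and stand beside the share of all genes. Alternatives were other windows (1 and 4 kb), overlaps (50%), starts, scores above the median and regions up to 10 kb. The start group of most transcripts, with ties going to the most upstream group, was added as an alternative after the data were seen. All 32 genes are named, and neighbours and regulators only where their state differed from that of the genes of their domain (at most 4 per domain). The genes, the gene lists and the limit of 5 hexamer copies were chosen with earlier results of these data known, and parental expression and DMRs were assigned from textbook knowledge. Functions were tested on simulated data, where 500 of 500 states were recovered. Python 3.11.15, NumPy 2.4.6, SciPy 1.17.1 and Matplotlib 3.10.9 were used.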

Additional observations from a re-analysis of the deposited data

How the results depend on the processing

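Of 103 alternative values, 77 differed from the value reported by at most 1.5 times, among them 42 PRCa start groups, against 28, with starts joined within 100 bp. No paired analysis was possible because each mark had 1 library. With regions above the median score, 3 genes were PRCa and 5 PRCr, and 7 start groups were PRCa. Median body cover was then 2.31% (H3K27me3), 4.48% (Pol2-S5p) and 1.08% (Pol2-S7p), and median domain cover 2.18, 3.75 and 1.99%. Without regions over 10 kb, Pol2-S5p was left at 20 genes and Pol2-S7p at 14, with 6 PRCa, 6 Active and 5 Inactive, and body medians were 3.57, 1.72 and 1.08%. These filters remove regions by construction. Without H3K27me3 regions over 10 kb alone, 12 of the 16 PRCa genes kept their state, against 42.0% of all PRCa promoters. Inactive genes numbered 2 where a region had to cover 50% of the window, 0 with a 4 kb window, 3 at the longest transcript and 2 at the group of most transcripts. Without the first 2 kb, body medians were 3.84, 12.3 and 9.04%. With 50 kb added on each side, H3K27me3 covered a median of 11.0% of the domains, and the median hexamer count was 1 in a 1 kb window; the causes were not tested. The PRCa count ranged from 12 to 20 over the other alternatives that kept all 32 genes, 20 with the union of all starts. It was 11 when the 7 genes whose windows overlap that of another gene were left out. With no depth and no replicates, a region that is missing from a list cannot be told apart from one that was not detected.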

Other observations

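Of 52 genes listed as neighbours of the imprinted domains, 34.6% had H3K27me3 at the promoter, near the 32.8% of all genes. Imprinting of the listed genes was not assessed, so they are no background of genes without it. Snurf among them starts inside the Snrpn window, and Hpgds, at 65122927 of chromosome 6, lies far from Herc3, which ends at 58920398. A total of 12 (23.1%) were PRCa, 19 Active, 1 (Rem1, beside H13) PRCr, 5 had H3K27me3 only, 5 had Pol2-S5p only and 10 were Inactive. Beside Igf2r and Airn, the organic cation transporter gene Slc22a3 had H3K27me3 only, and Slc22a2 and Mas1 were Inactive. Beside Peg10, Calcr, the calcitonin receptor, had H3K27me3 only and the protease inhibitor Tfpi2 was Inactive, while Casd1 and Ppp1r9a were Active. Near H13 and Mcts2, which had no H3K27me3, Cox4i2 had H3K27me3 only.

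Genes that keep or read imprints were all occupied by both polymerase marks. Of 8 such genes, Zfp57, Zfp445, Trim28, Smchd1 and Zfp42 were Active, and Dppa3, Ctcf and Setdb1 were PRCa. Over all genes 29.1% were Active and 18.8% PRCa, and over protein-coding genes 35.9% and 23.9%. Zfp42 is also among the embryonic stem cell markers used above.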
